A study of Mus musculus with 16 samples.

Results

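Shank1, Shank2, Shank3, Dlg2, Dlg3, Dlg4, Homer1, Dlgap1 and Camk2a, 9 genes for the protein scaffold of the excitatory postsynaptic density and its main kinase, were taken by symbol from the 26625 entries of a gene count table of the mouse medial prefrontal cortex (mPFC). The postsynaptic density is the protein layer beneath the membrane of an excitatory synapse. DLG proteins bind glutamate receptors by their tails, DLGAP proteins join them to SHANK, and SHANK with HOMER reaches further down to the actin of the spine and to internal calcium stores. CaMKII, whose alpha subunit is made by Camk2a, is the calcium-dependent kinase of this layer and is required for long-term potentiation.

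The table came from full-length cDNA sequenced on a Nanopore instrument from the mPFC of 16 young adult male C57BL/6 mice. Every mouse received an AAV in the mPFC and went through conditioned place preference training, and tissue was taken on the seventh day of withdrawal. A control shRNA was carried by 3 mice given saline (Ctrl + Saline) and 4 given morphine (Ctrl + Morphine). An shRNA against Kdm7a was carried by 5 mice given saline (Kdm7a-shRNA + Saline) and 4 given morphine (Kdm7a-shRNA + Morphine). Kdm7a codes for a demethylase of dimethylated lysines 9 and 27 of histone H3. The U6 promoter that drives such an shRNA is active in any transduced cell type, and bulk tissue also holds cells that took up no virus. The comparisons asked what the knockdown changed under saline and under morphine, what morphine changed with either virus, and whether the knockdown effect differed between the drugs (the interaction).

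Total counts ranged from 6596991 to 12418112 reads per mouse. Levels are given as normalized CPM, counts scaled to library size with edgeR's TMM factors, and differences as log2 fold changes with their SE from edgeR's quasi-likelihood test. A gene was called at a Benjamini-Hochberg adjusted p under 0.05 over 18826 tested genes and a fold change of at least 1.5. Kdm7a, the targeted gene, fell under saline (log2 fold change -0.76, SE 0.204, adjusted p = 0.0153), with no overlap between groups, and was at -0.67 (SE 0.206, adjusted p = 0.0506) under morphine, where the groups overlapped. Without Ctrl + Saline replicate 3 its value under saline was -0.79 (adjusted p = 0.0533). Under morphine it passed with all mice by DESeq2 (-0.66, adjusted p = 0.0354), by the exact test (-0.68, adjusted p = 0.0318) and with library size only (-0.77, adjusted p = 0.0301), and it also passed without Kdm7a-shRNA + Morphine replicate 1 (-0.80) or 4 (-0.79) or Ctrl + Morphine replicate 2 (-0.76). Microglia marker genes moved with the virus: 7 of 8 were called higher under saline and 5 of 8 under morphine, and their summed level ran from 495 to 1074 normalized CPM in the 7 Ctrl mice and from 933 to 4178 in the 9 Kdm7a-shRNA mice. Excitatory neuron markers gave 1 of 8 called higher under saline and 0 of 8 under morphine, with median log2 fold changes of -0.13 and -0.34. Their summed level ran from 915 to 1113 in Ctrl + Saline and from 1369 to 3502 in Kdm7a-shRNA + Saline. It ran from 1282 to 2618 in Ctrl + Morphine and from 1336 to 2781 in Kdm7a-shRNA + Morphine. A sum weighs each marker by its level, so under saline it could rise while the median log2 fold change was -0.13. Of 7 inhibitory neuron markers, 2 were called higher and 4 lower under saline and 1 each way under morphine. Of the other lists, 3 of 5 endothelial, 2 of 7 astrocyte and 1 of 3 oligodendrocyte precursor markers were called higher under saline, and 1 of 5 endothelial markers under morphine. In both comparisons 0 of 7 oligodendrocyte and 0 of 6 striatal projection neuron markers were called. Over all tested genes 16.7% were called under saline and 7.69% under morphine, in either direction. In bulk tissue, fewer cells of a type and less RNA per cell cannot be told apart.

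None of the 9 scaffold genes was called in any of the 5 comparisons by edgeR's quasi-likelihood test, although all 9 were counted well enough to be tested. Under saline the knockdown called 16.7% of all tested genes, and under morphine 7.69%. By longest annotated transcript, 9.36% were called under saline at 4 to 6 kb, 9.33% at 6 to 8 kb and 10.7% over 8 kb. The members fell in these bins, where 3.07%, 2.82% and 3.29% were called under morphine. Morphine called 0% of genes with the control virus and 0.00531% with Kdm7a-shRNA, and the interaction 0.085%. At an unadjusted p under 0.05, Homer1 and Camk2a passed under saline (2 of 9, against 34.7% of all genes) and Dlgap1 under morphine (1 of 9, against 25.5%). Shank1 passed for morphine with the control virus (1 of 9, against 11.7%). No member passed for morphine with Kdm7a-shRNA, where 7.02% of genes did, or in the interaction, where 10.7% did. DESeq2's Wald test and edgeR's exact test each called 1 member, Camk2a, in the knockdown under saline, and neither called a member in any other comparison it was run on. Over all tested genes DESeq2 called 3358 under saline and the exact test 3495. The median log2 fold change of the members was -0.11 under saline and -0.15 under morphine for the knockdown, beside 0.01 and -0.00 over all tested genes.

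**Figure D1:**
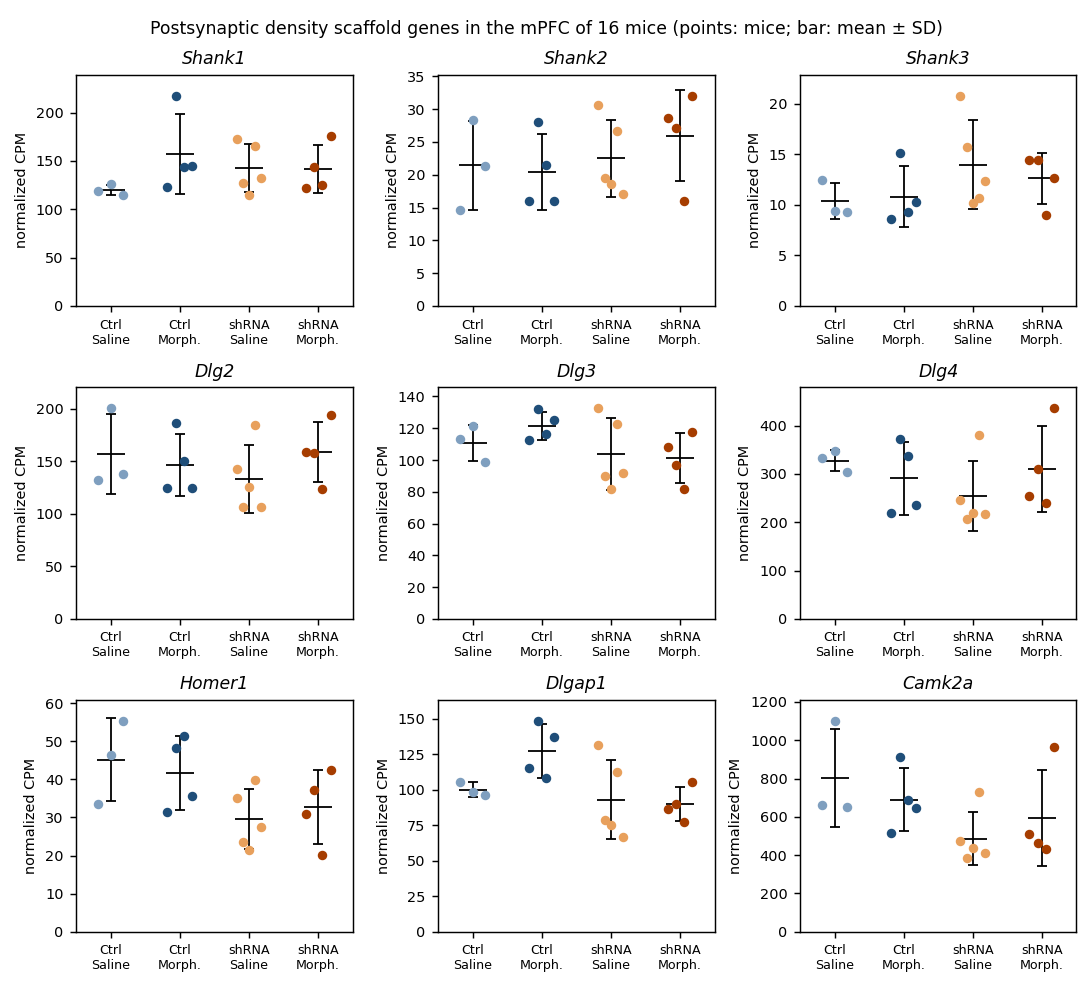
Normalized CPM of the 9 scaffold genes (y axis, from 0) in each mouse of the 4 groups (x axis); points are mice, and the bar with whiskers is the group mean ± SD (n = 3, 4, 5 and 4). Dlgap1 in the 4 Kdm7a-shRNA + Morphine mice sits between 77.0 and 106, below all 4 Ctrl + Morphine mice, and Camk2a has a single high mouse in each Kdm7a-shRNA group.

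Camk2a showed the widest difference among the members. Its levels were 660, 1099 and 652 normalized CPM in the Ctrl + Saline mice and 473, 383, 437, 728 and 413 in the Kdm7a-shRNA + Saline mice. A single Kdm7a-shRNA mouse, replicate 4, lay above the lowest Ctrl mice, and the highest Ctrl mouse was replicate 2. The log2 fold change was -0.72 (SE 0.265, 95% interval -1.28 to -0.17, adjusted p = 0.0612). Without Ctrl + Saline replicate 2 it was -0.43 (adjusted p = 0.353), and it was called without Kdm7a-shRNA + Saline replicate 4 (-0.92, adjusted p = 0.0158) and without Ctrl + Saline replicate 1 (-0.88, adjusted p = 0.0491). Over 10 alternative settings that kept all mice the value ran from -0.85 to -0.71, the adjusted p from 0.0254 to 0.0589, and Camk2a was called in 6. Under morphine the Ctrl mice gave 515, 911, 688 and 647 and the Kdm7a-shRNA mice 509, 466, 433 and 967, a log2 fold change of -0.22 (SE 0.261, adjusted p = 0.647) that ran from -0.56 without Kdm7a-shRNA + Morphine replicate 4 (adjusted p = 0.117) to -0.06 without Ctrl + Morphine replicate 2. The kinase's other subunits and inhibitors were measured beside it. Camk2b, the beta subunit, had a log2 fold change of 0.08 under saline (SE 0.122, adjusted p = 0.687), Camk2d 0.21 and Camk2g 0.35, whose adjusted p of 0.0181 came with a fold under 1.5. Camk2n2, an endogenous CaMKII inhibitor, rose by 1.06 (SE 0.245, adjusted p = 0.00689) from 4.80 ± 1.54 (SD, n = 3) to 10.001 ± 2.34 (SD, n = 5) normalized CPM, and Camk2n1, the other inhibitor, was at -0.42 (adjusted p = 0.194).

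Homer1 codes for the HOMER protein that links SHANK to metabotropic glutamate receptors, and its short forms are made after neuronal activity. The counts were per gene, so short and long forms were pooled. Levels were 33.6, 46.5 and 55.2 normalized CPM in Ctrl + Saline and 35.2, 23.6, 21.6, 39.9 and 27.5 in Kdm7a-shRNA + Saline mice, and the lowest Ctrl mouse fell among the Kdm7a-shRNA values. The log2 fold change was -0.61 (SE 0.245, 95% interval -1.12 to -0.09, adjusted p = 0.0865). Under morphine the groups overlapped, with 31.4, 48.2, 51.5 and 35.7 in Ctrl and 31.0, 37.2, 20.1 and 42.5 in Kdm7a-shRNA mice (log2 fold change -0.36, SE 0.241, adjusted p = 0.382). Homer1 was called under saline in 2 of 8 fits with a mouse left out, those without Kdm7a-shRNA + Saline replicate 4 (-0.74) and without Ctrl + Saline replicate 1 (-0.82), and was at -0.46 (adjusted p = 0.313) without Ctrl + Saline replicate 3. The 2 paralogs of Homer1 were called under saline in opposite directions. Homer2 fell by 1.32 (-1.32, SE 0.304, adjusted p = 0.00667), from 12.1 ± 1.77 (SD, n = 3) to 4.83 ± 2.77 (SD, n = 5) normalized CPM. Homer3 rose by 1.25 (SE 0.254, adjusted p = 0.00323), from 5.01 ± 0.657 to 11.95 ± 3.03. Under morphine Homer2 again fell (-1.07, SE 0.303, adjusted p = 0.0346), while Homer3 was at -0.32 (adjusted p = 0.416), and the test of the difference between the drugs gave -1.57 for Homer3 (SE 0.342, adjusted p = 0.0732).

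A promoter window of Homer1 is shown because it had the most copies of TGACG among the windows taken. TGACG is the core of the cAMP response element that CREB binds in activity-driven genes. The promoter of Shank3 is shown because Shank3 was the member least correlated with Camk2a across mice. RefSeq promoter windows of 300 bases (250 before to 50 after a gene start, GRCm38.p6, plus strand) were taken for 6 members, 13 windows in all. None was taken for Shank1, Shank2 or Camk2a. Capitals mark TGACG in Homer1 (chr13:93303507-93303806) and each CG in Shank3 (chr15:89499358-89499657).
Homer1: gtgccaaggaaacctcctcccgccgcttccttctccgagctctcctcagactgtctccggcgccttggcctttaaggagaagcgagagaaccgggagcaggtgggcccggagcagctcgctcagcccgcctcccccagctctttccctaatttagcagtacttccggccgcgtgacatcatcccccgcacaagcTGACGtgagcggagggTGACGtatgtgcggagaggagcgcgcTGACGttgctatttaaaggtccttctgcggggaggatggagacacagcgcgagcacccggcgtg
Shank3: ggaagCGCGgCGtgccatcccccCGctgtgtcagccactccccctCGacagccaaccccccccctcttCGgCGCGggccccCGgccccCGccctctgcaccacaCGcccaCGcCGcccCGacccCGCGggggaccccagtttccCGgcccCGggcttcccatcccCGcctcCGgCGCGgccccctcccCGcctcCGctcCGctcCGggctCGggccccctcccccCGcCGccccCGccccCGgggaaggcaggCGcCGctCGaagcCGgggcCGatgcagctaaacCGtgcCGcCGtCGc
The Homer1 window shown held 3 copies of TGACG, counted on both strands with no overlap with another searched motif, and 20.9% of 32544 windows held at least 1. Single copies were found in 1 window each of Dlg3 and Dlg4. The Shank3 window held 40 CG pairs and 81.0% G and C, more CG than 96.1% of windows, whose median was 7. The Homer1 window shown held 26 CG pairs, and the 3 Dlg2 windows from 1 to 3. The other Homer1 window (chr13:93307784-93308083) held 7 CG pairs and 0 copies of TGACG.

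SHANK proteins form the deep layer of the density, and mutations of SHANK3 are known from autism. Shank3 levels were 12.4, 9.37 and 9.27 normalized CPM in Ctrl + Saline and 20.8, 15.7, 10.2, 10.7 and 12.4 in Kdm7a-shRNA + Saline mice, with counts from 70 to 181 reads per mouse. The groups overlapped, and the log2 fold change was 0.43 (SE 0.25, adjusted p = 0.235). Shank1 had log2 fold changes of 0.25 (SE 0.178, adjusted p = 0.34) under saline and -0.15 (SE 0.171, adjusted p = 0.623) under morphine, and Shank2 had 0.06 (adjusted p = 0.889) and 0.34 (adjusted p = 0.429). With the control virus, Shank1 was 118, 126 and 115 under saline and 123, 218, 144 and 145 under morphine, and replicate 2 was the high mouse. Its log2 fold change of 0.39 (SE 0.186) had an unadjusted p of 0.0492 and an adjusted p of 0.427. Exons of Shank1 (chr7:44310253-44360572) and Shank3 (chr15:89499623-89560261) overlap annotated genes on the opposite strand, 1700008O03Rik and Gm15609.

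DLG proteins are the membrane-associated scaffolds, with PSD-95 made from Dlg4, PSD-93 from Dlg2 and SAP102 from Dlg3. Dlg4 was 333, 347 and 304 normalized CPM in Ctrl + Saline and 245, 206, 219, 381 and 216 in Kdm7a-shRNA + Saline mice. Replicate 4 was higher than every Ctrl mouse and the other 4 were lower, and the log2 fold change was -0.37 (SE 0.221, adjusted p = 0.248). Under morphine Dlg4 ran from 220 to 372 in Ctrl and from 241 to 436 in Kdm7a-shRNA mice (0.09, SE 0.216, adjusted p = 0.833). Dlg2 had log2 fold changes of -0.24 (adjusted p = 0.418) and 0.11 (adjusted p = 0.762), and Dlg3 of -0.10 (adjusted p = 0.704) and -0.27 (adjusted p = 0.285). The fourth gene of the family, Dlg1 (SAP97), was at -0.08 and -0.11. In either knockdown comparison 0 of 4 DLG genes were called by edgeR's quasi-likelihood test, DESeq2 or the exact test, and 0 of 4 had an unadjusted p under 0.05. Over all tested genes the quasi-likelihood test called 16.7% under saline and 7.69% under morphine. An unadjusted p under 0.05 was found for 34.7% and 25.5%. Dlg2 (chr7:90476672-92449247) shares exon positions with Gm45131 and Gm45159 on its own strand.

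Dlgap1 codes for the SAPAP/GKAP link between DLG and SHANK. It was the 1 member of 9 with non-overlapping groups in the knockdown under morphine, no larger a share than over all tested genes. In the Ctrl + Morphine mice it was 115, 148, 108 and 137 normalized CPM, and in the Kdm7a-shRNA + Morphine mice 86.3, 89.8, 77.0 and 106. All 4 Kdm7a-shRNA mice lay below all 4 Ctrl mice, the highest at 106 and the lowest Ctrl mouse at 108, and 13.9% of tested genes had groups that did not overlap. The log2 fold change was -0.51 (SE 0.182, 95% interval -0.89 to -0.12, adjusted p = 0.0861). Leaving out each of the 8 mice in turn gave -0.59 to -0.43. With the control virus all 4 morphine mice also lay above the 3 saline mice (106, 98.4 and 96.0), where 12.4% of genes did not overlap (0.35, SE 0.197, adjusted p = 0.52). These comparisons share the Ctrl + Morphine mice. No member had non-overlapping groups in the knockdown under saline, where 23.7% of genes did, or for morphine with Kdm7a-shRNA, where 1.94% did. Of its paralogs, Dlgap3 rose under saline (1.12, SE 0.261, adjusted p = 0.007), from 9.67 ± 2.24 (SD, n = 3) to 21.2 ± 6.47 (SD, n = 5), and was at 0.15 (adjusted p = 0.745) under morphine. Dlgap4 was at 0.45 (adjusted p = 0.0839) and Dlgap2 at -0.13 (adjusted p = 0.795) under saline. An antisense transcript, AC079441.1, overlaps exons of Dlgap1 (chr17:69969073-70821413).

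**Figure D2:**
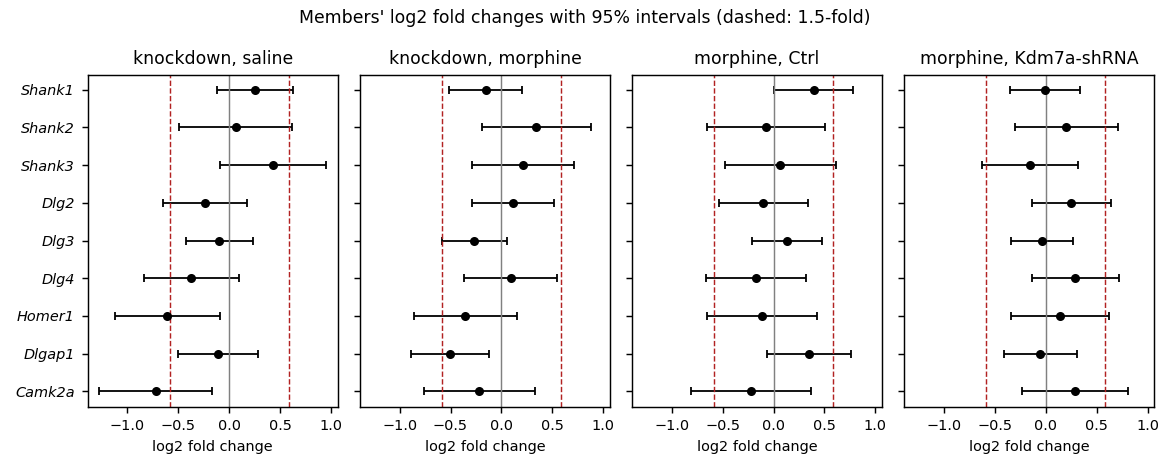
Log2 fold changes (x axis) of the 9 scaffold genes (y axis) with 95% intervals in the 4 comparisons between groups; the dashed lines mark 1.5-fold. The intervals of Homer1 and Camk2a under saline and of Dlgap1 under morphine lie wholly below 0, and that of Shank1 for morphine with the control virus starts just above it.

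The intervals show how large a change could have gone undetected. In the knockdown under saline 2 members, Dlg3 and Dlgap1, had intervals that lay wholly within 1.5-fold, and under morphine 4 did, namely Shank1, Dlg2, Dlg3 and Dlg4. A 2-fold decrease lay inside the interval of Homer1 (-1.12) and of Camk2a (-1.28) under saline and outside that of every member under morphine. For morphine itself the intervals of 2 members with the control virus and of 3 with Kdm7a-shRNA lay within 1.5-fold. In the interaction no interval did, and the values ran from -0.40 in Shank1 (SE 0.246, adjusted p = 0.603) to 0.51 in Camk2a (SE 0.373, adjusted p = 0.68). With 1 mouse left out the interaction of Camk2a ran from 0.17 (without Kdm7a-shRNA + Morphine replicate 4) to 0.70, and that of Shank1 from -0.52 to -0.20 (without Ctrl + Morphine replicate 2).

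**Figure D3:**
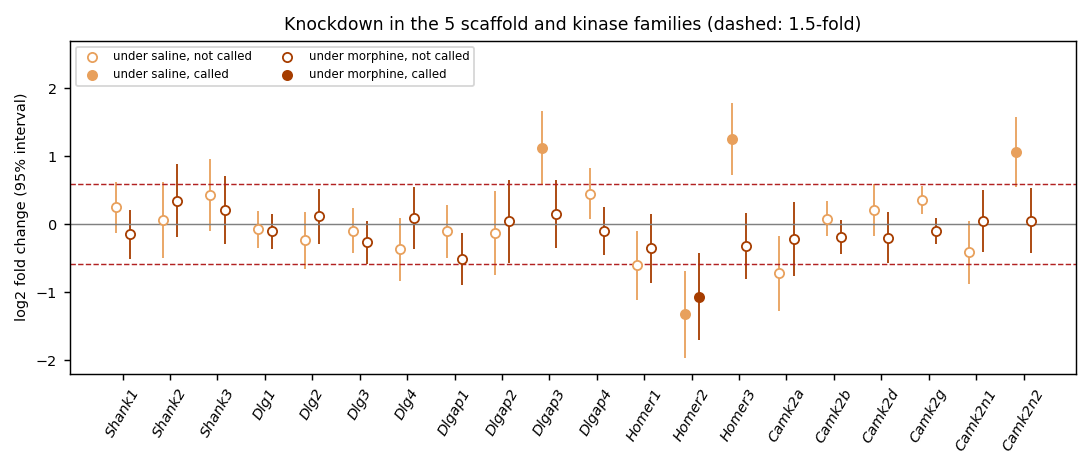
Knockdown log2 fold changes with 95% intervals (y axis) for the 20 genes of the Shank, Dlg, Dlgap, Homer and CaMKII families (x axis), under saline and under morphine; filled points passed the test and open points did not. The filled points under saline are Dlgap3, Homer3 and Camk2n2 above 0 and Homer2 below it, and Homer2 is the filled point under morphine.

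Among the genes whose products bind these scaffolds, AMPA receptor subunits were lower after the knockdown under saline and an NMDA receptor subunit moved each way. Of 73 tested genes from the same families and from lists of their partners, 6 were called higher and 14 lower under saline (background 16.7%), and 0 and 4 under morphine (background 7.69%). The backgrounds count both directions together and include genes without an annotated length. In every bin of annotated length the share called was lower than these backgrounds. By longest transcript, calls under saline over all tested genes were 599 higher and 112 lower at 2 to 4 kb, and 20 higher and 78 lower over 8 kb. Of 16 glutamate receptor, TARP and neuroligin genes, 4 fell under saline, the AMPA receptor subunits Gria1 (-0.75, SE 0.226, adjusted p = 0.0266), Gria2 (-0.66) and Gria3 (-0.67) and the NMDA receptor subunit Grin2b (-0.77). Grin1, the obligatory NMDA receptor subunit, rose by 0.81 (SE 0.216, adjusted p = 0.0144). Of 19 tested other proteins of the density, 5 fell and 0 rose, among them Sipa1l1 at -0.73 (SE 0.216, adjusted p = 0.0239), Lrrc7 at -0.67, Abi2 at -0.62 and Cyld, a deubiquitinase, at -0.59. With all mice kept but the compared groups fitted alone, Gria3 (adjusted p = 0.0528), Grin2b (adjusted p = 0.0584), Lrrc7 (adjusted p = 0.0512) and Abi2 (adjusted p = 0.0747) were not called. Leaving out Ctrl + Saline replicate 2 brought the 20 calls under saline down to 5, which were Homer2, Homer3, Dlgap3, Camk2n2 and Syne1. Under morphine, leaving out Kdm7a-shRNA + Morphine replicate 3 or Ctrl + Morphine replicate 4 left Fscn1 as the single call of 4.

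Of 11 genes listed for spine actin, Syne1 fell under both drugs (-0.83, adjusted p = 0.00259, and -0.67, adjusted p = 0.0173). The Syne1 counts pool all transcripts of the gene, whether or not their products are found in spines. Ppp1r9b, the spine protein spinophilin, rose under saline (0.63, adjusted p = 0.0305) and fell under morphine (-0.65, adjusted p = 0.0363). Its call under saline was lost with library size only (0.50, adjusted p = 0.0733) and with known genes only (0.55, adjusted p = 0.0674). In the interaction 0 of the 11 listed genes were called, Ppp1r9b included, beside 0.085% of all tested genes. Fscn1, which bundles actin filaments, fell under morphine (-0.94, SE 0.19, adjusted p = 0.0077) and was at 0.09 (adjusted p = 0.785) under saline. Of 11 immediate early genes, Fos (-0.86), Egr2 (-1.06) and Nr4a1 (-0.69) fell and Ier2 (1.24) rose under saline, with 0 of 11 called under morphine by edgeR without a covariate, 0 at an unadjusted p under 0.05 and 0 by DESeq2. None of 5 tested genes of the inhibitory postsynapse was called in either comparison by edgeR without a covariate or by DESeq2. At an unadjusted p under 0.05 Nlgn2 passed under saline (0.32, adjusted p = 0.141) and 0 of 5 under morphine. For these lists the share of all tested genes called by edgeR was 16.7% under saline and 7.69% under morphine, and 34.7% and 25.5% had an unadjusted p under 0.05.

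Across mice of the same group the scaffold genes went up and down together. After each group mean was taken out, the 36 pairs of members had Pearson correlations from 0.08 (Shank3 with Camk2a) to 0.90 (Dlg2 with Camk2a) over 16 mice, with a median of 0.69 and 31 above 0.5. Over all pairs of 6668 known genes with at least 70 counts in every mouse, the median was 0.01 and 10.1% were above 0.5. All points share the library, its depth and its mix of cells, and no p is given. In the 7 Ctrl mice alone the median was 0.64 and in the 9 Kdm7a-shRNA mice 0.75. All 9 members lay above their group mean in Kdm7a-shRNA + Morphine replicate 4 and Ctrl + Morphine replicate 2. All 9 lay below it in Kdm7a-shRNA + Morphine replicate 3, Ctrl + Morphine replicate 1 and Kdm7a-shRNA + Saline replicates 3 and 5. Without Kdm7a-shRNA + Morphine replicates 3 and 4 the median correlation was 0.63.

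**Figure D4:**
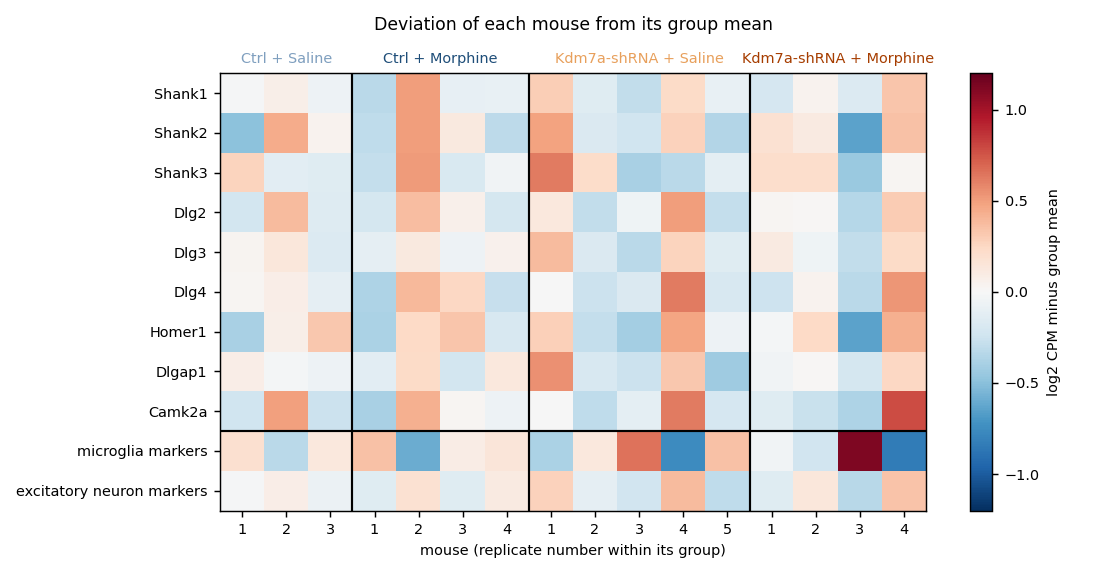
Deviation of each mouse (columns, by group and replicate number) from its group mean in log2 CPM (colour) for the 9 scaffold genes and, below the line, for the mean of the microglia and of the excitatory neuron markers. Columns are mostly of 1 colour over the scaffold genes, and the microglia row has the opposite colour, as in Kdm7a-shRNA + Morphine replicates 3 and 4.

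The members varied more within groups than most genes of like level. Their within-group SD on the log2 scale stood between the 62.7th percentile (Dlg3) and the 93.2nd (Camk2a) of 1000 genes nearest in level, and the Camk2a SD of 0.418 compared with 0.0206 from counting alone. The mean deviation of the 9 genes was set against the markers of 8 cell types over the 16 mice. It was most closely related to the microglia markers (r = -0.95, Spearman's rho = -0.96), then to the excitatory neuron (r = 0.89), astrocyte (r = -0.84) and inhibitory neuron markers (r = 0.78). The r was -0.65 for oligodendrocyte, -0.64 for endothelial, -0.32 for oligodendrocyte precursor and -0.17 for striatal markers, which would mark tissue from outside the mPFC, and -0.33 for the total count. Without the 2 mice farthest out in microglia level the r with it stayed at -0.95. These are descriptions over mice that share libraries, and the part of cell makeup in them was not tested.

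**Figure D5:**
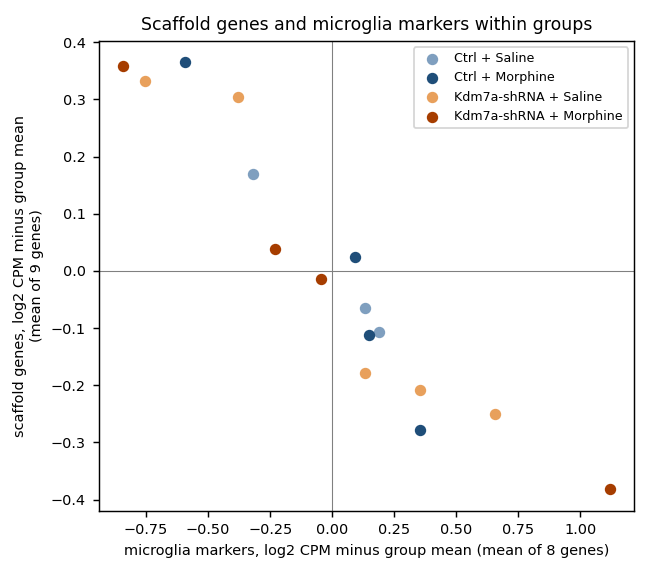
Mean deviation of the 9 scaffold genes (y axis) against that of 8 microglia marker genes (x axis), both as log2 CPM minus the group mean, with each point a mouse coloured by group. The points of all 4 groups run along a single falling line (r = -0.95 over 16 mice).

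Because the microglia level was also higher with Kdm7a-shRNA, the knockdown comparisons were fitted with it as a covariate in 2 ways, both chosen after these values were seen. With the level centred within each group, it could absorb the spread between mice but not the difference between viruses. Camk2a then had a log2 fold change of -0.72 (adjusted p = 0.00233) and Homer1 of -0.64 (adjusted p = 0.00457) under saline, and both were called. Of the marker lists, microglia was the one most closely related to these 9 genes within groups (r = -0.95). Less spread, and so a smaller p for them, was thus built into the centred fit, and its calls are no separate support. In the same fit Dlg4 was at -0.40 (adjusted p = 0.034) under saline, not called because its fold was under 1.5. Under morphine the centred fit called 0 members, with Dlgap1 at -0.50 (adjusted p = 0.0137), also a fold under 1.5. Kdm7a under morphine was called in it (-0.69, adjusted p = 0.0214). With the level uncentred, Camk2a was at 0.03 (adjusted p = 0.954) and Homer1 at 0.09 (adjusted p = 0.842), 6 of the 9 members changed sign, and Shank1 (0.71, adjusted p = 0.00742) and Shank2 (0.85, adjusted p = 0.0182) were called higher. Over all tested genes the uncentred fit called 1612 under saline and 1093 under morphine. Under morphine the uncentred fit called Shank2 higher (0.95, adjusted p = 0.00603) and gave Dlgap1 at -0.15 (adjusted p = 0.647). Dlg2 (0.55, adjusted p = 0.0246) and Dlg4 (0.56, adjusted p = 0.0417) were above 0 there with a fold under 1.5, and were not called. Of the paralogs, Dlgap3 (1.62, adjusted p = 0.00186) and Camk2n2 (1.02, adjusted p = 0.0489) were still called under saline in the uncentred fit, Homer2 (-0.55, adjusted p = 0.227) and Homer3 (0.74, adjusted p = 0.106) were not, and Kdm7a was at -0.51 (adjusted p = 0.261). Of the 73 related genes 10 were called in that fit, and 3 of them, Dlgap3, Camk2n2 and Ppp1r9b, were among the 20 called without the covariate, while Gria1 was at 0.00. The other 7 included Nlgn2 of the inhibitory postsynapse and the immediate early genes Egr4 and Npas4. Under morphine that fit called 3 related genes, Fscn1 (-0.85, adjusted p = 0.0247), Ppp1r9a and Npas4, and Homer2 (-0.41, adjusted p = 0.38), Syne1 (-0.37, adjusted p = 0.0976) and Ppp1r9b (-0.45, adjusted p = 0.207) were not called. The microglia level and the virus moved together, and their parts in the members' differences cannot be told apart here.

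Among the known genes outside the lists whose levels followed the mean of the members most closely over the 16 mice were Ncald (r = 0.957), Nsf (r = 0.953), Syt1 (r = 0.949) and Itpka (r = 0.941). Ncald codes for the calcium sensor neurocalcin delta, Nsf for the ATPase of membrane fusion, Syt1 for the calcium sensor of synaptic vesicles and Itpka for an inositol trisphosphate kinase of dendritic spines. Their log2 fold changes in the knockdown ran from -0.25 to -0.07 under saline and from -0.22 to -0.01 under morphine.

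Transcript length moved with the knockdown across the whole table. Among the 75.2% of tested genes with an annotated length, the median log2 fold change under saline went from 0.23 for genes whose longest transcript was under 1 kb to -0.15 for those over 8 kb, and under morphine from 0.12 to -0.07. The longest annotated transcripts of the members ran from 4970 bases (Camk2a) to 9826 (Shank1), in bins whose medians under saline were 0.04, -0.03 and -0.15. Camk2a and Homer1 belonged to the shortest of these bins, and Shank1 and Shank2, with values above 0 under saline, to the longest. The part of length in the members' differences was not tested.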

How the data were processed

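The mPFC total RNA was made into cDNA by template switching and PCR (SQK-PCS109) and sequenced on a Nanopore instrument. Per the labels, the authors aligned reads to mm10 with minimap2 and deposited a table of read counts per gene for 16 mice, beside CPM values (counts scaled to library size) that were not used here; edgeR 3.8.6 is named in the submitters' processing notes. Columns were matched to mice by the sample names in the labels. Counts are PCR reads without molecular identifiers, so precision from depth covers counting error only. Same-group mice differed by more than sampling noise in all 25 pairs (chi-square per degree of freedom 8.33 to 51.2).

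Here the deposited counts were fitted in R 4.3.3 with edgeR 4.0.16 (filterByExpr, TMM, glmQLFit and glmQLFTest) in 1 model of the 4 groups. TMM factors were 1.02 to 1.07 in Ctrl and 0.913 to 0.991 in Kdm7a-shRNA mice. Intervals used the t distribution with the test's degrees of freedom, and log2 CPM a prior count of 2. The fit was tested on simulated data. Replicate numbers, which the labels tie to no litter or batch, were checked by correlating deviations of same-numbered mice, and all 3 Ctrl pairs were above 0.1. Alternatives were other scalings, filters, a replicate block, known genes only, the compared groups alone, DESeq2 1.42.0, the exact test and each mouse left out; the covariate fits, and the alternatives for related genes, were added after seeing the data. Coordinates and lengths came from GENCODE (GRCm38), promoters from RefSeq. The members and lists were chosen with earlier results of these data known. Named genes were the members, Kdm7a, the Dlg, Dlgap, Shank, Homer and CaMKII families, every listed gene called (at most 6 a list) and the 5 most correlated known genes. Nlgn2, Egr4, Npas4 and Ppp1r9a were named after their values were seen. Values of 2 genes that this rule names are not reported here. No column of the authors' own comparisons was used.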

Additional observations from a re-analysis of the deposited data

Results flagged for a closer look

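Of 27 sets of values tested (9 genes in the 3 groups of 4 or 5 mice), 3 held a mouse far from the others by Dixon's test, which by chance marks about 1 set in 20. In Kdm7a-shRNA + Saline, replicate 4 had 381 normalized CPM of Dlg4, beside 245 in the nearest mouse, and 728 of Camk2a, beside 473. In Kdm7a-shRNA + Morphine, replicate 4 had 967 of Camk2a, beside 509. Both mice had the lowest microglia marker level of their group (-0.76 and -0.84 from the group mean on the log2 scale). The part of that level in these values was not tested.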

How the results depend on the processing

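The count of 0 members called in the knockdown under saline became 2 with library size only (Homer1, Camk2a) and with the centred microglia covariate (Homer1, Camk2a), 2 with the uncentred covariate (Shank1, Shank2), and 1 (Camk2a) with at least 10 counts in every mouse, the compared groups alone, DESeq2 or the exact test. With 1 mouse left out it ran from 0 to 2. Same-numbered mice correlated from -0.10 to 0.39, above 0.1 in 6 of 21 pairs. In the Ctrl groups all 3 pairs were above 0.1 (0.11 to 0.21), and in each other comparison at least 1 pair was not, although Kdm7a-shRNA replicates 3 (0.39) and 4 (0.36) were. With the replicate block 1 member was called (Camk2a, -0.82, adjusted p = 0.0254), in no comparison but this, and morphine with the control virus still called 0 genes. In the knockdown under morphine 1 member was called with library size only (Dlgap1, -0.61, adjusted p = 0.0455) and with the uncentred covariate (Shank2). The other 3 comparisons gave 0 in every fit. The related genes called under saline went from 20 to 10 with the uncentred covariate and to 22 with the centred one. With 1 mouse left out they ran from 5 to 28 under saline and from 1 to 7 under morphine. Library size only moved the median of all genes to -0.12 and -0.11 in the knockdown comparisons. Lrrc7 (adjusted p = 0.0538) and Cyld (-0.58, under 1.5-fold) were not called with the block, nor Cyld with TMM on long transcripts (-0.58) or Abi2 with no filter (adjusted p = 0.051).

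Of 432 member values refitted with all mice, 4 changed sign: Shank2 under saline (-0.071 with library size only, -0.017 with known genes only), Dlg4 under morphine (-0.0075) and Shank1 for morphine with Kdm7a-shRNA (0.022), the last pair with library size only. With the uncentred covariate the knockdown values under saline changed sign for Dlg2 (0.32), Dlg3 (0.31), Dlg4 (0.22), Homer1 (0.087), Dlgap1 (0.32), Camk2a (0.028) and Gria1 (0.0039), and under morphine for Shank1 (0.23), Dlg3 (0.055), Homer1 (0.17) and Camk2a (0.34). Morphine values changed sign for Shank3 with the control virus (-0.022) and, with Kdm7a-shRNA, for Shank2 (-0.11), Homer1 (-0.15) and Camk2a (-0.027), and with the centred covariate for Shank1 (0.00063). The causes were not tested.

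With 1 mouse left out, 30 of 432 values changed sign. In the knockdown, Shank2 ran from -0.18 to 0.33 under saline, and Dlg4 from -0.12 to 0.23 and Shank1 from -0.27 to 0.045 under morphine. For morphine with the control virus, Shank2 ran from -0.32 to 0.18, Homer1 from -0.32 to 0.038, Shank3 from -0.14 to 0.18, Dlg2 from -0.25 to 0.12 and Camk2a from -0.38 to 0.076. With Kdm7a-shRNA, Shank1 ran from -0.13 to 0.070, Dlg3 from -0.12 to 0.066, Dlgap1 from -0.15 to 0.11, Homer1 from -0.013 to 0.32, Camk2a from -0.053 to 0.48 and Shank3 from -0.25 to 0.036.

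Over all genes, the calls under saline (3151) were 1852 with at least 10 counts and 1419 with known genes only, both of which test fewer genes, 1612 with the uncentred covariate, and 1424 to 3730 with 1 mouse left out. Under morphine (1448) they were 697, 446, 685 in the compared groups alone, 2173 with the centred covariate, and 568 to 2066. With library size only the calls were 3309 under saline and 1640 under morphine. The centred covariate gave 3981 under saline and the uncentred one 1093 under morphine. Morphine with the control virus (0) gave 190 with DESeq2, 165 with the exact test and up to 230 with a mouse left out, morphine with Kdm7a-shRNA (1) up to 49, and the interaction (16) from 0 to 266, with 6 under the replicate block.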
